A study of Caenorhabditis elegans with 4 samples.

Results

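RNA polymerase II and its elongation factors were represented by 8 *C. elegans* genes, *ama-1*, *rpb-2*, *spt-4*, *spt-5*, *emb-5*, *cdk-9*, *cit-1.1* and *cit-1.2*. They were found by their WormBase symbols among the 20380 genes of the count table, and all 8 were counted and passed the filter on low counts. The animals were wild type (N2) and ate RNAi bacteria from the L1 to the L4 larval stage at 20°C, which made double-stranded RNA against *xrn-2* or, as mock, held the L4440 vector without an insert. Poly(A) RNA of whole animals was sequenced in 2 replicates of each condition, which gave 4 libraries. The *xrn-2* RNAi animals grow slowly and were kept on their food for longer than mock, so time on the food and RNAi cannot be told apart. The labels do not say whether the replicates came from separate cultures, and p-values here measure the spread between these libraries only.

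RNA polymerase II makes all messenger RNA. AMA-1 is its largest subunit and carries the C-terminal domain (CTD), a tail of repeats whose phosphorylation changes along a gene, and RPB-2, the second largest, forms the catalytic cleft together with it. SPT-4 and SPT-5 bind each other and clamp the moving polymerase (DSIF in mammals), EMB-5 is the homologue of SPT6, a histone chaperone that travels with the polymerase, and CDK-9 with a cyclin T, CIT-1.1 or CIT-1.2, is the kinase P-TEFb, which phosphorylates the CTD and SPT5. XRN2 is a nuclear exoribonuclease that in yeast and mammals helps to take the polymerase off its template at the end of a gene.

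The counts of the targeted gene overlapped between the conditions. Of *xrn-2*, 3993 and 5948 reads were counted in mock replicates 1 and 2, and 5835 and 5977 in the RNAi libraries. With edgeR's quasi-likelihood test its log2 fold change was -0.13 (SE 0.28, adjusted p = 0.897). The paper reports that *xrn-2* mRNA accumulates when XRN2 is inactivated. It also reports that *xrn-2* RNAi raised the signal of GFP reporters holding the region upstream of *xrn-2*. These counts alone therefore do not show whether the RNAi worked. The libraries are described below as labelled *xrn-2(RNAi)*, or "upon RNAi" for short. Libraries held between 41105706 and 48451504 reads. Markers of muscle, pharynx, intestine, hypodermis, neurons and germline were detected in all libraries, as whole animals should give, and no marker was at 0. Their levels were not even, as the summed scaled count of 5 hypodermis genes was 1302 in mock replicate 2. In the other libraries it ran from 104846 to 301646. The summed scaled count of 5 moulting genes was 2561 in mock replicate 2 against 32215 to 129761 in the other libraries. Both sums set mock replicate 2 apart. Of the moulting genes, *mlt-10*, *mlt-11* and *noah-1* were lowest there. *nas-37* (1551 there and 1160.5 in RNAi replicate 2) and *nekl-2* (429 and 218) were not. For 5 oocyte genes the sum was 61979 in mock replicate 2 and 67163 in RNAi replicate 2, against 4621 and 21164 in the replicate 1 libraries. Results are therefore also given without mock replicate 2. Those fits compare mock replicate 1 alone with both RNAi libraries, without the replicate as a block. The oocyte sums of these libraries differ too, so such fits do not remove differences of that kind. By correlation with a time course of L4 development, the paper placed the replicate 2 libraries later than those of replicate 1. It also found the replicate 2 pair less well matched in time. Whether developmental time takes part in the values below was not tested.

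The plainest difference lay in *ama-1*. All libraries were brought to the same total, the mean of 43719995 reads, and these values are called scaled counts. The scaled count of *ama-1* was 7501 and 10278 in mock and 15761 and 25464 in libraries labelled *xrn-2(RNAi)*. Both of the latter lay above both mock libraries, and the gap within a replicate was 2.10-fold and 2.48-fold. The mean was 8889 ± 1964 in mock and 20613 ± 6861 upon RNAi (SD, n = 2). Libraries of 1 condition differed too, by 1.37-fold between the mock libraries and by 1.62-fold between the others, with replicate 2 the higher each time. Among the 8 genes *ama-1* had the widest range, with 3.40-fold between its lowest and highest library.

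In the edgeR fit over 16178 genes, with TMM scaling (which assumes that most genes do not change) and the replicate as a block, the log2 fold change of *ama-1* was 0.92 (SE 0.28). Its unadjusted p was 0.0353 and its adjusted p was 0.362, so it did not pass the threshold of 0.05. That test called 0 of the 8 genes, and 0 genes in all (0% higher and 0% lower), while 2020 genes had an unadjusted p under 0.05 (6.66% higher and 5.83% lower), *ama-1* alone among the 8. With DESeq2, *ama-1* was again the only 1 of the 8 to pass, at the same log2 fold change of 0.92 (SE 0.16, adjusted p = 7.10e-07), where 8.07% of all genes were called higher and 8.9% lower. Over the 9 alternative fits that give a p for *ama-1*, the log2 fold change ran from 0.56 to 1.22 and the adjusted p from 7.10e-07 to 1.00. Without mock replicate 2 and without the block, the log2 fold change was 1.22, with mock replicate 1 as the only mock library.

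Oocyte and germline genes also varied among the libraries in which *ama-1* varied. The 5 oocyte markers summed to 4621 and 61979 scaled reads in mock and to 21164 and 67163 in libraries labelled *xrn-2(RNAi)*, and the 8 germline markers to 63716, 116010, 102074 and 117727 in the same order. Replicate 2 was the higher in both conditions for these sums, as it was for *ama-1*. Not every germline marker did so, as upon RNAi replicate 2 was at 0.690 of replicate 1 for *glh-1* and at 0.959 for *him-3*. The 6 sperm markers summed to 4650, 5311, 7801 and 5762 in the same order, so replicate 2 was the lower upon RNAi. Between the conditions, the oocyte sum differed 4.58-fold in replicate 1 and 1.08-fold in replicate 2 after total scaling. The log2 fold changes of *ama-1* in replicates 1 and 2 were 1.07 and 1.31 after total scaling, but 0.90 and 0.94 after TMM scaling. Whether a change in the share of such cells takes part in the *ama-1* values was not tested, and in whole animals more cells of a type cannot be told apart from more RNA per cell.

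**Figure D1:**
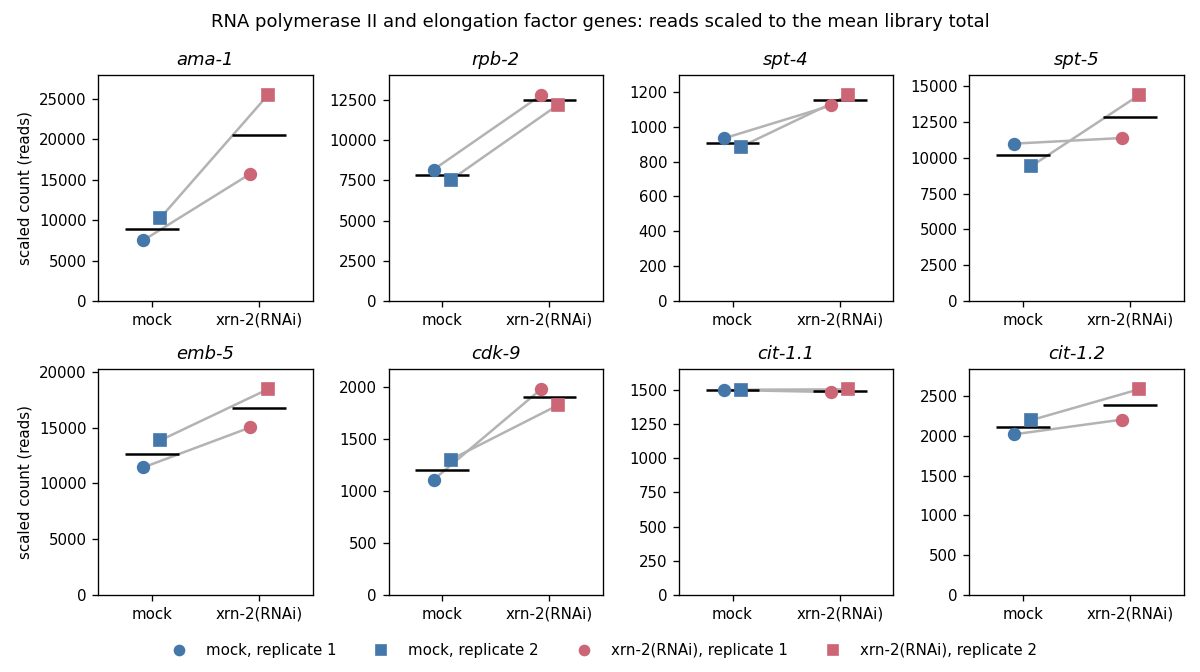
Scaled count of each of the 8 genes (y axis, reads at the mean library total, from 0) by condition (x axis), with 1 point per library, circles for replicate 1, squares for replicate 2, black bars for the mean of 2 libraries and grey lines joining libraries of a replicate number. *ama-1* runs from 7501 to 25464, while all 4 libraries of *cit-1.1* lie between 1484 and 1504.

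*rpb-2* came next to *ama-1*, with a steadier level. Its scaled count was 8172 and 7529 in mock and 12795 and 12205.5 in libraries labelled *xrn-2(RNAi)*. The conditions did not overlap, and the gap of 1.57-fold and 1.62-fold was far wider than that between libraries of 1 condition, in which replicate 2 was at 0.921 and 0.954 of replicate 1. Relative to other genes the gap was smaller. The edgeR log2 fold change of *rpb-2* was 0.40 (SE 0.26, adjusted p = 0.637), and DESeq2 gave an adjusted p of 0.109, the lowest of its 9 alternatives. Without mock replicate 2 the value was 0.39.

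Of the kinase genes, *cdk-9* had a larger difference between the conditions than its cyclins. The scaled count of *cdk-9* was 1109 and 1303 in mock and 1980 and 1828 upon RNAi, 1.78-fold and 1.40-fold higher within replicates 1 and 2. After TMM scaling its within-replicate log2 fold changes were 0.66 and 0.12. The conditions did not overlap. With edgeR its log2 fold change was 0.39 (SE 0.28, adjusted p = 0.676), but 0.22 without mock replicate 1, 0.24 without RNAi replicate 1 and 0.56 without mock replicate 2. *cit-1.1* was the flattest of the 8 genes, at 1500 and 1501 in mock and 1484 and 1504 upon RNAi. All 4 of its libraries lay within 1.01-fold, while TMM scaling put its within-replicate log2 fold changes at -0.18 and -0.37. *cit-1.2* had scaled counts of 2019 and 2198 in mock and of 2203 and 2583 upon RNAi. Mock replicate 2 lay just below replicate 1 of the RNAi libraries, and the sign of its edgeR log2 fold change of -0.09 (SE 0.23, adjusted p = 0.920) depended on the scaling, as total count scaling gave 0.18.

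Kinase and cyclin genes were also read against each other within a library. Per kb of annotated exon, *cdk-9* reads were 0.808 and 0.872 of *cit-1.2* reads in mock and 1.32 and 1.04 of them in libraries labelled *xrn-2(RNAi)*. The ratio of *cdk-9* to *cit-1.1* was 0.879 and 1.03 in mock and 1.59 and 1.45 upon RNAi. Neither ratio overlapped between the conditions, and scaling of the libraries does not enter them. Within replicates 1 and 2, the ratio to *cit-1.2* was 1.64-fold and 1.19-fold higher upon RNAi, and that to *cit-1.1* 1.80-fold and 1.40-fold. For how many of all genes the ratio of *cdk-9* to the gene is separated likewise was not counted. The ratios were not tested. Of all cyclin T reads, *cit-1.2* took 57.4% (95% Wilson interval 55.7 to 59.1) and 59.4% (57.8 to 61.0) in mock, and 59.7% (58.2 to 61.2) and 63.2% (61.7 to 64.7) in the others. The intervals of mock replicate 2 and RNAi replicate 1 overlap, and they cover counting error only. *cit-1.1* and *cit-1.2* are neighbours on opposite strands of chromosome III and are copies of one family, so some reads may have been given to the wrong one.

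The SPT4 and SPT5 genes differed less between the conditions than *ama-1* and *rpb-2*. *spt-4* had scaled counts of 934 and 886 in mock and 1123 and 1181 in libraries labelled *xrn-2(RNAi)*. Its conditions did not overlap, and lay 0.26 and 0.41 apart on the log2 scale within replicates 1 and 2. *spt-5* had scaled counts of 11001 and 9432 in mock and 11392 and 14376 upon RNAi, so that its conditions were separated by a narrow margin between both replicate 1 libraries. The edgeR log2 fold changes were 0.07 (SE 0.27, adjusted p = 0.949) for *spt-4* and 0.06 (SE 0.28, adjusted p = 0.960) for *spt-5*. For *spt-5* the within-replicate values disagreed, at 0.05 and 0.61 after total scaling and at -0.12 and 0.24 after TMM scaling, and the fit without mock replicate 2 gave -0.0033. As the gene products work as a pair, their ratio was also taken. Per kb, *spt-5* reads were 1.63 and 1.47 of *spt-4* reads in mock and 1.40 and 1.69 of them upon RNAi, and the conditions overlapped.

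*emb-5*, the SPT6 homologue, had scaled counts of 11437 and 13871 in mock and 15036 and 18442 in libraries labelled *xrn-2(RNAi)*. The conditions did not overlap, and the difference of 1.31-fold and 1.33-fold was near that between the libraries of 1 condition, 1.21-fold and 1.23-fold. Its edgeR log2 fold change was 0.13 (SE 0.28, adjusted p = 0.904), and it was -0.06 without mock replicate 1. Without mock replicate 2 the log2 fold changes of *emb-5*, *spt-4* and *cit-1.1* were 0.32, 0.08 and -0.23. Replicate 2 was the higher in both conditions, as for *ama-1*.

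Counted together, 7 of the 8 genes had both libraries labelled *xrn-2(RNAi)* above both mock libraries after total scaling, *cit-1.1* being the exception, against 35.3% of all genes tested. This count rests on the scaling. With TMM scaling it was 4 (*ama-1*, *rpb-2*, *spt-4* and *cdk-9*), against 19.7%. Leaving out mock replicate 1, mock replicate 2, RNAi replicate 1 or RNAi replicate 2 gave 7, 7, 8 and 7 genes after total scaling, against 60.6%, 50.8%, 51% and 44.4% of all genes. A log2 fold change of at least 1 in both replicates was reached only by *ama-1* among the 8 after total scaling, against 7.6% of all genes, and by none of them after TMM scaling, against 6%. The median over the 8 genes was 0.37 after total and 0.10 after TMM scaling, beside 0.30 and 0.05 for all genes tested, so the scaling moves the 8 genes as it moves the rest. Among the edgeR fold changes of all genes tested, *ama-1* stood at percentile 84.9, *rpb-2* at 72.1 and *cdk-9* at 71.6, while *spt-5* was at 50.6 and *cit-1.1* at 28.3.

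**Figure D2:**
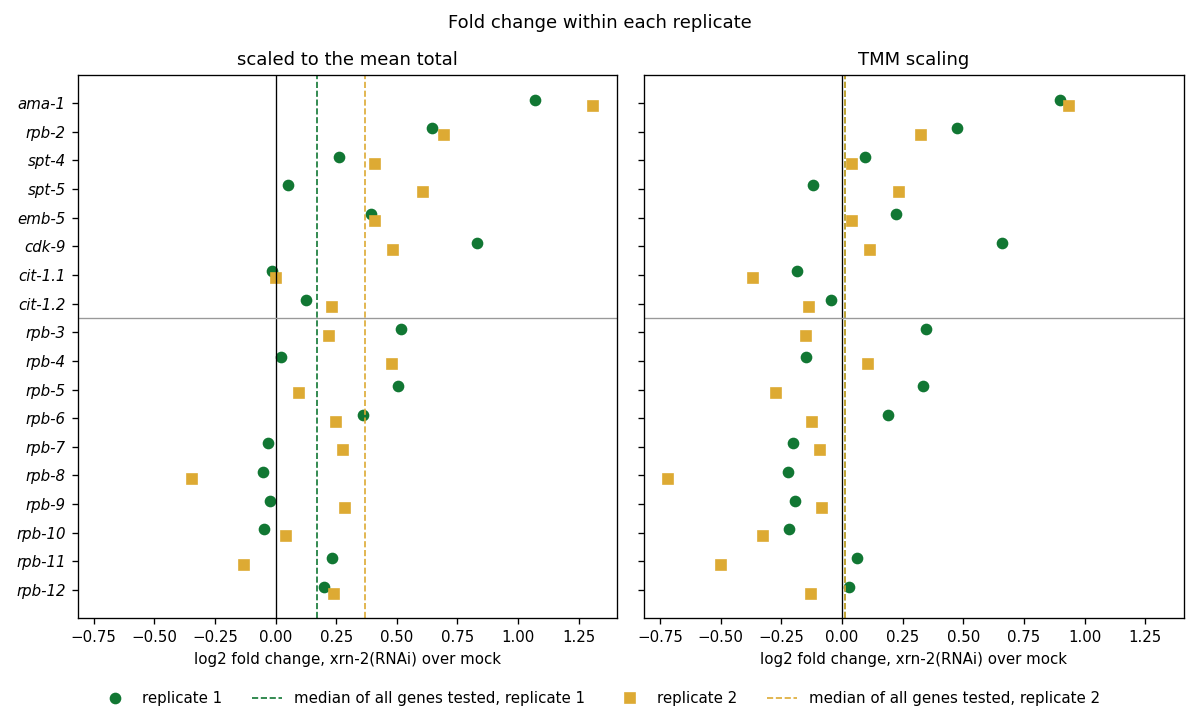
Log2 fold change within replicate 1 (circles) and replicate 2 (squares) for the 8 genes and, under the grey line, the 10 other RNA polymerase II subunits, after total scaling (left) and TMM scaling (right). Dashed lines mark the medians over all genes tested, which lie at 0.17 and 0.37 after total scaling and at 0.01 for both replicates after TMM scaling, and *ama-1* is the rightmost gene in every replicate and scaling.

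The other subunits of the polymerase had lower fold changes than *ama-1* and *rpb-2*. RNA polymerase II has 12 subunit genes in *C. elegans* as listed here, and edgeR and DESeq2 each called 0 of the 10 beside *ama-1* and *rpb-2*, with 0 of 10 at an unadjusted edgeR p under 0.05. Their edgeR log2 fold changes ran from -0.47 for *rpb-8* (SE 0.26, adjusted p = 0.577), a small subunit shared with the other polymerases, to 0.10 for *rpb-3* (SE 0.26, adjusted p = 0.924), a subunit of the assembly platform. For *rpb-8*, 2511 and 2491 reads were counted in mock and 2851 and 2021 in libraries labelled *xrn-2(RNAi)*, the last being the lowest. For *rpb-3* the counts were 2176 and 2863 against 3673 and 3445. The median of the 10 genes was 0.18 after total scaling, under the 0.30 of all genes, and -0.09 after TMM scaling.

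The ratio of *ama-1* to another subunit within a library does not depend on how libraries are scaled. Per kb of exon, the ratio of *ama-1* to *rpb-2* was 0.604 and 0.898 in mock and 0.810 and 1.37 upon RNAi. It was higher upon RNAi within both replicates, by 1.34-fold and 1.53-fold, but mock replicate 2 lay above RNAi replicate 1. For the 10 other subunits the conditions did not overlap, which also held for the ratio of *ama-1* to 58.2% of all genes tested. The ratio to *rpb-3* was 0.508 and 0.541 in mock and 0.746 and 1.15 upon RNAi, and that to *rpb-8* was 0.267 and 0.377 against 0.583 and 1.19. The ratio to *rpb-7*, which forms a stalk on the polymerase with *rpb-4*, was separated least, at 0.244 and 0.515 in mock and 0.523 and 1.05 upon RNAi. Over all 11 subunits the ratio was higher upon RNAi in both replicates, by 1.34 to 2.18-fold in replicate 1 and by 1.53 to 3.15-fold in replicate 2, as it was against 74.2% of all genes tested. All 11 share the *ama-1* reads and so are not independent of each other, and no test was made.

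**Figure D3:**
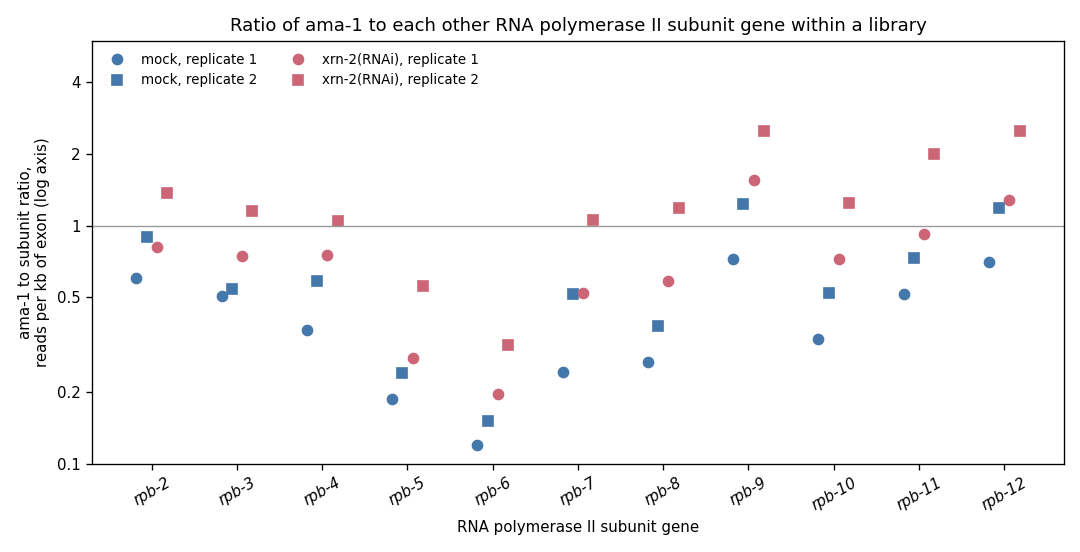
Ratio of *ama-1* to each of the 11 other RNA polymerase II subunit genes within a library (y axis, reads per kb of exon over reads per kb of exon, log axis), with blue points for mock, red for *xrn-2(RNAi)*, circles for replicate 1 and squares for replicate 2. In every column the red point lies above the blue point of the same shape, and mock replicate 2 lies above RNAi replicate 1 only for *rpb-2* (0.898 and 0.810).

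Levels were compared between genes per kb of exon, at the scaled counts. In mock, *spt-5* had the highest level of the 8 genes, 2668 ± 290 reads per kb (SD, n = 2), and *emb-5* had 2601 ± 354. These levels overlapped. *rpb-2* followed with 1982 ± 115, *spt-4* with 1717 ± 64.0 and *ama-1* with 1477 ± 326, and the last overlapped with *spt-4* but not with *rpb-2*. The kinase genes formed the lower end, with 863 ± 51.8 for *cit-1.2*, 759 ± 0.513 for *cit-1.1* and 726 ± 82.5 for *cdk-9*, of which *cit-1.1* and *cdk-9* overlapped.

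In the libraries labelled *xrn-2(RNAi)* the order of levels was another. *emb-5* had 3441 ± 495 reads per kb, *ama-1* 3424 ± 1140, *spt-5* 3365 ± 551 and *rpb-2* 3157 ± 105, and these levels all overlapped. Below them lay *spt-4* with 2173 ± 77.6, *cdk-9* with 1145 ± 64.8, *cit-1.2* with 979.5 ± 110 and *cit-1.1* with 756 ± 6.89, with no overlap between neighbours. From the top of the 8 genes, *ama-1* ranked 5 and 4 in mock and 4 and 1 in the others. Among the 10 other subunits, *rpb-6*, which the other polymerases also use, had the highest level, with 10418 and 11260 in mock and 13380 and 13382 upon RNAi, while *rpb-9* had the lowest in all libraries, from 1380 to 1713. Exon lengths are from a later annotation than that used for counting, so levels per kb are approximate.

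*ama-1* and *spt-5* lie on chromosome IV, *cdk-9* on I and the other 5 genes on III. Of the 8, 3 are the first or second gene of an operon listed by the study, each of a different one. Later positions in operons were not searched. An operon is a run of genes made as 1 transcript and cut apart. The study asked whether second genes of operons gain expression of their own upon *xrn-2* RNAi, so reads of second and first gene were compared within a library. In *spt-5~K08E4.3* the second gene, *K08E4.3*, was counted with 396 and 242 reads in mock and 1288 and 1239 in libraries labelled *xrn-2(RNAi)*. There were 0.0383 and 0.0267 *K08E4.3* reads per *spt-5* read in mock and 0.102 and 0.0870 upon RNAi. The ratio rose without overlap, by 1.56 on the log2 scale (SE 0.21, adjusted p = 0.0375 over 1321 operons in edgeR with the replicate as a block), and by 1.40 and 1.67 within the replicates. The second gene was called higher relative to the first in 10 operons, 0.757%.

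The call for *spt-5~K08E4.3* needs the block. Without it the difference was again 1.56 with an adjusted p of 0.385, and with DESeq2 the adjusted p was 1.60e-05, the lowest and 0.385 the highest of its alternatives with a test, where 5.6% of operons were called in that direction. On its own, *K08E4.3* had an edgeR log2 fold change of 1.62 (SE 0.36, adjusted p = 0.279). This operon was known from earlier results of these data when it was chosen, so its value is no independent support. Between *spt-5* and *K08E4.3* lies *K08E4.2*, on the opposite strand, with 1267 reads over the 4 libraries. It overlaps 73 bases of the 3829 bases of *spt-5* exon, and whether counting used the strand is not stated.

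In the other operons the difference was smaller and did not pass the test. In *emb-5~him-18*, where *him-18* encodes a scaffold of DNA repair nucleases, there were 0.126 and 0.171 *him-18* reads per *emb-5* read in mock and 0.156 and 0.167 upon RNAi. These overlapped, and the difference was 0.14 (SE 0.22, adjusted p = 0.761 in edgeR). In *attf-3~spt-4*, *spt-4* is the second gene, and there were 1.07 and 0.551 *spt-4* reads per *attf-3* read in mock and 0.683 and 0.574 upon RNAi. The mock libraries lay on either side of the others, and the difference was -0.29 (SE 0.29, adjusted p = 0.595 in edgeR). The difference within a replicate was -0.65 in replicate 1 and 0.06 in replicate 2.

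**Figure D4:**
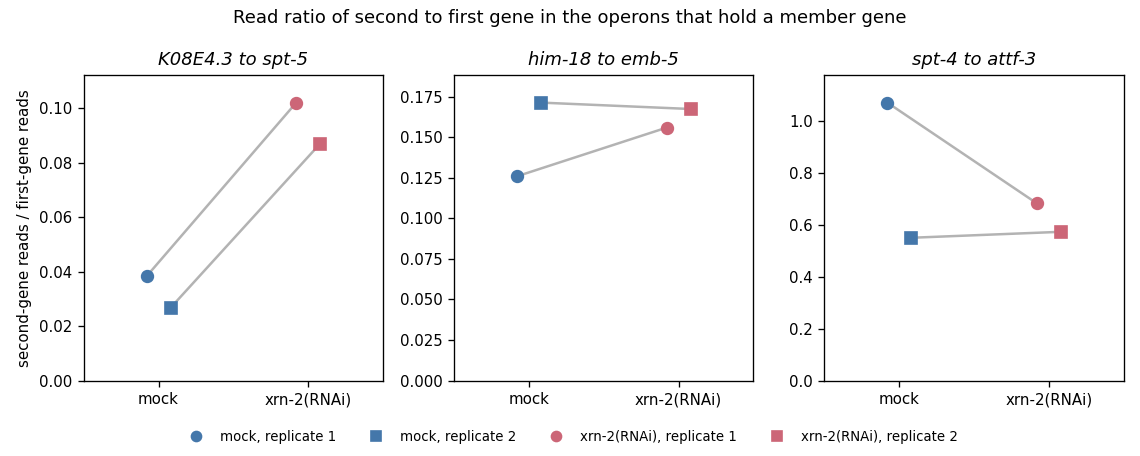
Reads of the second gene per read of the first (y axis, from 0) in the 3 operons that hold *spt-5*, *emb-5* or *spt-4*, by condition, with circles for replicate 1, squares for replicate 2 and grey lines joining libraries of a replicate number. Only *K08E4.3* to *spt-5* has both RNAi libraries, at 0.102 and 0.0870, above both mock libraries, at 0.0383 and 0.0267.

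Genes that act with the polymerase at other steps were described from 5 further lists, of 25, 12, 11, 11 and 10 genes tested. In each, edgeR called 0 genes. In all, 1 gene had an unadjusted edgeR p under 0.05, against 6.66% higher and 5.83% lower of all genes tested. DESeq2 called 3 higher and 0 lower, against 8.07% and 8.9% of all genes. General initiation factors, which bring the polymerase to promoters, had a positive edgeR log2 fold change in 25 of 25 genes counted, against 54% of all genes tested. After TMM scaling, 18 of the 25 were higher within both replicates, against 4956 of 16178 genes tested. Both RNAi libraries lay above both mock libraries for 8 of them, against 19.7%. The list median was 0.50 after total and 0.23 after TMM scaling, beside 0.30 and 0.05 for all genes. The highest was *gtf-2H5*, a small subunit of TFIIH, at 1.03 (SE 0.28, adjusted p = 0.328 in edgeR and 1.49e-04 in DESeq2), with 788 and 442 reads in mock and 1952 and 1317 upon RNAi. The lowest was *taf-4*, a TFIID subunit, at 0.01 (SE 0.27, adjusted p = 0.997). *gtf-2H5* was the list's gene at an unadjusted p under 0.05, and the only 1 of the 25 to pass with DESeq2.

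Among 12 kinases and phosphatases of the CTD and their partners, 9 had a positive value, and the median was 0.35 after total and 0.08 after TMM scaling. *cic-1*, cyclin C of the Mediator kinase module, was the highest at 0.85 (SE 0.31, adjusted p = 0.419 in edgeR and 0.00814 in DESeq2), and its 437 and 470 reads in mock did not overlap with 1113 and 1065 in the others. *cdk-7*, the TFIIH kinase, passed with DESeq2 as well (adjusted p = 0.0446), with an edgeR log2 fold change of 0.48 (SE 0.23, adjusted p = 0.519), and is named here for that. *mnat-1*, which holds CDK-7 and its cyclin together, was the lowest at -0.46 (SE 0.36, adjusted p = 0.699).

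Other elongation and histone chaperone factors had positive values in 8 of 11 genes counted, from -0.20 for *ell-1* (SE 0.25, adjusted p = 0.822 in edgeR), homologue of an elongation factor, to 0.51 for *hmg-3* (SE 0.27, adjusted p = 0.556), a subunit of the histone chaperone FACT. Integrator subunits, which cut nascent RNA and end transcription early, had them in 10 of 11, from -0.10 for *ints-2* to 0.54 for *ints-5* (SE 0.26, adjusted p = 0.523). The medians of these lists were 0.39 and 0.44 after total scaling and 0.12 and 0.17 after TMM scaling. They stood above the median of all genes in replicate 1 only, at 0.50 and 0.63 against 0.17 after total scaling, while replicate 2 gave 0.36 and 0.36 against 0.37. The CTD enzymes behaved likewise, at 0.39 in replicate 1 and 0.36 in replicate 2. RNA polymerase I and III subunits were lower, with 4 of 10 positive and a median of 0.12 after total and -0.15 after TMM scaling, from -0.51 for *rpac-19* (SE 0.24, adjusted p = 0.516), shared by both polymerases, to 0.12 for *rpoa-49* (SE 0.25, adjusted p = 0.901). *ama-1*, at 0.92, was higher than every gene of these lists but *gtf-2H5*.

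**Figure D5:**
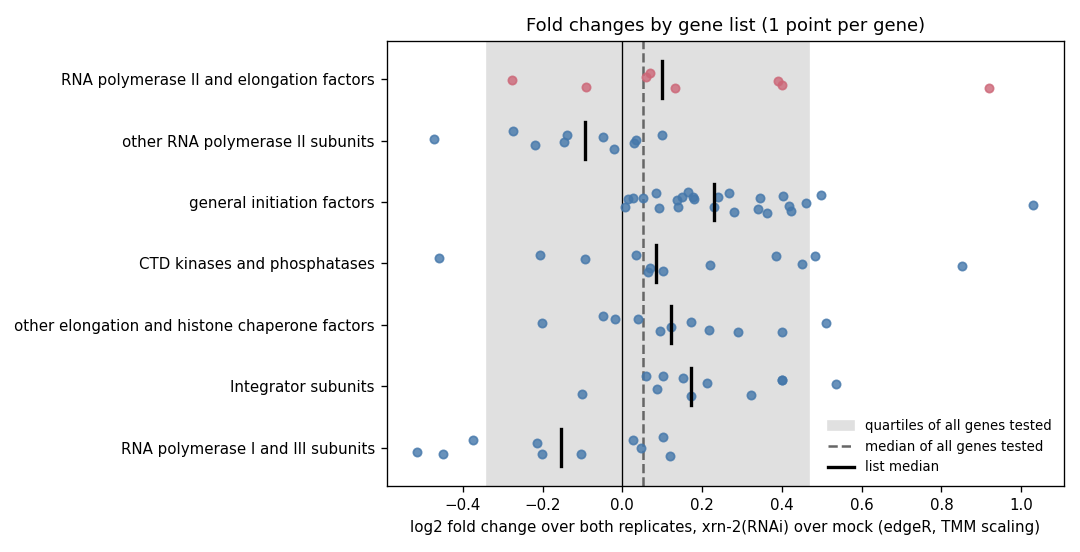
Log2 fold change over both replicates in edgeR (x axis, TMM scaling) with 1 point per gene and 1 row per list, the 8 genes in red, black bars for list medians, a dashed line for the median of all genes tested (0.05) and grey for their quartiles (-0.34 to 0.47). *ama-1* at 0.92, *gtf-2H5* at 1.03 and *cic-1* at 0.85 stand farthest to the right, and 10 of 10 other polymerase II subunits lie at or below 0.10.

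The profile of *ama-1* was compared with those of 13966 other genes whose scaled counts averaged 50 or more, by the Euclidean distance of log2 values centred on their mean over the 4 libraries. The nearest was *polg-1*, the mitochondrial DNA polymerase, at a distance of 0.0386, with scaled counts of 626 and 864 in mock and 1354 and 2110 upon RNAi. *ztf-20*, a zinc finger gene (0.0477), *ZK105.1* (0.0483), *cng-1*, of the cyclic nucleotide-gated channel family (0.0504), and *K11D2.1* (0.0567) came after it. None of the other 7 genes was close. *cdk-9* ranked 1927 at a distance of 0.795, *emb-5* ranked 2350, *rpb-2* ranked 2391 and *cit-1.1*, the farthest, ranked 6546 at 1.33. The distances rest on 4 libraries and are given as a description.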

How the data were processed

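Poly(A) RNA libraries (TruSeq) were made by the authors from N2 animals, 2 replicates per condition, which were grouped by their titles. The authors aligned reads to ce10 with qAlign of QuasR (spliced mode), sorted them with Samtools 1.2 and counted reads over the exons of each WormBase WS220 gene. The deposited counts are whole numbers, not normalized. Of 20380 genes, 1046 were without reads. No library was pooled.

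Following the study's methods, libraries were scaled to their mean total, and log2 fold changes were computed within replicates after adding 8. Genes were tested on unscaled counts with edgeR 4.0.16 in R 4.3.3 (glmQLFit, TMM, filterByExpr, Benjamini-Hochberg over 16178 genes). The replicate was a block, since the study takes fold changes within replicates. The study focused on the replicate 1 pair, which it found better matched in developmental time, and used the replicate 2 pair as a check. Both pairs entered the fits here. Residual degrees of freedom were 1. Same-numbered libraries deviated together from the condition means (r = 0.57 over genes, which are not independent). DESeq2 1.42.0 was the alternative. Standard errors are the absolute log2 fold change over the root of F. Operons (1353, gene identifiers only) came from the study's list, and those with at least 40 reads for each gene were fitted with terms for library, second gene, second gene in replicate 2 and second gene in *xrn-2(RNAi)*. An exact permutation test of 2 against 2 cannot go below 0.333 and was not made. The fits were also run on counts simulated without a replicate effect and with larger changes than that of *ama-1*. Those runs therefore do not bear on the calls made here.

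Names (19179 of 20380 identifiers), neighbours, overlaps and exon lengths came from a WBcel235 annotation, another build than ce10, so no coordinates are given. No sequences are shown.

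The members and lists were chosen with earlier results of these data known. Besides the 8 genes, those named are the other polymerase II subunits, operon partners, *xrn-2*, the highest and lowest gene of each list and the 5 profiles nearest to *ama-1*. Alternatives were other scalings, a pseudocount of 1, no filter, no block, DESeq2 and leaving out libraries.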

Additional observations from a re-analysis of the deposited data

How the results depend on the processing

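The fewest reads of any of the 8 genes in a library were the 851 of *spt-4* in mock replicate 2, and whether depth or the spread between 2 replicates limits the calls was not tested. The edgeR test called 0 genes higher and 0 lower and DESeq2 called 1306 and 1440, with *ama-1* at 0.92 (adjusted p = 7.10e-07) among them. Without the replicate block edgeR again called 0 genes. *spt-5~K08E4.3*, the only edgeR call among the 8 genes and their operons, lost it (1.56, adjusted p = 0.385). DESeq2 was not run without the block. Signs turned, with no call on either side, for *spt-5* without mock replicate 2 (-0.0033) and without RNAi replicate 2 (-0.086), for *emb-5* without mock replicate 1 (-0.064) and without RNAi replicate 2 (-0.0081), and for *cit-1.2* with total scaling (0.18) and without mock replicate 2 (0.016). The cause was not tested.

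Scaling moved the mean of the within-replicate values. With TMM and with median-of-ratios scaling it was 0.92 and 0.92 for *ama-1*, 0.40 and 0.40 for *rpb-2*, 0.068 and 0.070 for *spt-4*, 0.13 and 0.13 for *emb-5*, 0.39 and 0.39 for *cdk-9*, -0.28 and -0.27 for *cit-1.1* and -0.091 and -0.089 for *cit-1.2*. With these scalings 4 and 4 of the 8 genes had both RNAi libraries above both mock libraries (19.7% of all genes with TMM). After total scaling 7 or 8 did when each library in turn was left out, against 44.4% to 60.6% of all genes. These alternatives were chosen after seeing the data. List medians were 0.10 and 0.10 for the 8 genes, -0.093 and -0.091 for the other subunits, 0.23 and 0.23 for initiation factors, 0.083 and 0.086 for CTD enzymes, 0.12 and 0.12 for other elongation factors, 0.17 and 0.17 for Integrator, -0.15 and -0.15 for polymerases I and III and 0.048 and 0.050 for all genes. With 1 replicate left out, medians after total scaling ran from 0.48 to 0.56 for initiation factors, from 0.36 to 0.39 for CTD enzymes, from 0.36 to 0.50 for other elongation factors, from 0.36 to 0.63 for Integrator, from 0.13 to 0.19 for polymerases I and III, from 0.11 to 0.23 for the other subunits, from 0.33 to 0.45 for the 8 genes and from 0.17 to 0.37 for all genes. Signs also turned in values of 1 replicate, which have no test, for *spt-5* without replicate 2 (-0.12), *emb-5~him-18* without replicate 1 (-0.035) and *attf-3~spt-4* without replicate 1 (0.057).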
